A study of Mus musculus with 6 samples.

Results

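The enzymes of central carbon metabolism were examined in mammary epithelial cells (MECs) of wild-type and IL-21isoTg mice. The 38 enzyme genes were chosen by symbol, as genes of glycolysis, the pentose phosphate path, the entry of pyruvate into mitochondria and the citrate cycle. They occupied 39 of the 55487 rows of the count table, because the symbol Aldoa stands on 2 identifiers. All 39 rows passed the filter on low counts, which left 17165 genes to test. MECs were taken from 3 wild-type and 3 IL-21isoTg virgin BALB/c females aged 10 weeks, with 1 library per mouse and no selection by estrous stage. IL-21isoTg mice carry a transgene for a membrane-bound isoform of the cytokine interleukin-21 that is made in T cells, so MECs were not the cells meant to express it. In both genotypes the cells were what remained of digested mammary tissue after cells bearing CD45, CD31 or CD140a had been removed. The comparison addressed how MECs differ between the genotypes before tumors appear.

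Glycolysis splits glucose into pyruvate in the cytosol and yields ATP and NADH, and lactate dehydrogenase turns pyruvate into lactate and restores NAD+. The pentose phosphate path branches off at glucose 6-phosphate and supplies NADPH and ribose 5-phosphate. Pyruvate enters the mitochondrial citrate cycle as acetyl-CoA through the pyruvate dehydrogenase complex, or as oxaloacetate through pyruvate carboxylase. In mammary epithelium these routes feed fatty acid and lactose synthesis as well as respiration.

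No enzyme gene passed edgeR's quasi-likelihood test at an adjusted p under 0.05. Neither did any of the 17165 genes tested (0%), the smallest adjusted p being 0.126. Pyruvate carboxylase, Pcx, came nearest among the enzymes, at 2.50 times the wild-type level. At an unadjusted p under 0.05 there were 4 of 39 rows (Pcx, Hk2 and both Aldoa identifiers), where 999 of all genes (5.82%) reached that level. Levels were higher in every IL-21isoTg mouse than in every wild-type mouse for 4 genes, Pcx, Hk2, Aldoa and Dlat, against 951 of all genes (5.54%). They were lower without overlap for the second Aldoa identifier, against 1123 of all genes (6.54%). In both directions together 12.8% of the enzyme rows and 12.1% of all genes did not overlap, a share near the background. Pcx was also the enzyme that passed an adjusted p under 0.05 by DESeq2, which called 77 of 16014 genes (0.481%), and by edgeR's likelihood ratio test, which called 65 of 17165 genes (0.379%).

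Of the 39 rows, 29 had a positive and 10 a negative fitted log2 fold change (IL-21isoTg over wild-type), with a median of 0.061, while 47.9% of all genes were positive with a median of -0.019. This tilt depended most on IL-21isoTg mouse 2. With any other mouse left out, 22 to 30 of 39 rows were positive. Without IL-21isoTg mouse 2, 15 of 39 rows were positive and the median was -0.039, beside 46.6% positive and a median of -0.037 over all genes. Without wild-type mouse 3, 22 of 39 rows were positive and the median was 0.006, beside 49.1% positive and a median of -0.008 over all genes.

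Some features of the libraries touch these values. The totals ran from 15902886 to 25719244 counts. Il21, which the transgene encodes, had 0, 0 and 37 counts in wild-type mice 1 to 3 and 795, 216 and 131 in IL-21isoTg mice 1 to 3, so a wild-type library also held Il21 reads. All 10 epithelial markers, among them Krt8, Krt18 and Epcam, were detected in every mouse. A list of 15 salivary gland genes, among them Amy1, Bpifa2 and Smr3a, took 22.6%, 6.58% and 15.6% of the counts of wild-type mice 1 to 3 and 22.2%, 4.88% and 40.3% of those of IL-21isoTg mice 1 to 3. Its 13 tested genes all had a positive fold change, none was at 0 in all mice, and 2 of the 15 were at 0 in at least 1 mouse. All 7 fibroblast markers were detected in every mouse. Of these, 6 had positive fold changes, and Dcn had a negative one (log2 fold change -0.27). Higher without overlap were 4, Col1a1, Col1a2, Col3a1 and Lum, where 5.54% of all genes were. The summed level of the 7 was 1963 to 3448 CPM in wild-type and 4315 to 4970 CPM in IL-21isoTg mice. All 6 endothelial markers had positive fold changes, where 47.9% of all genes did. Of these only Cdh5 was higher without overlap, where 5.54% of all genes were. Their summed level was 88.4 to 222 CPM in wild-type and 136 to 306 CPM in IL-21isoTg mice. The salivary share was also fitted as a covariate, which was added after the data were seen. The part of these lists in the results was not tested. In such bulk libraries, fewer cells of a type and less RNA per cell cannot be told apart. Levels are TMM-normalized CPM (CPM is the share of a library that a gene takes, here with a correction for library composition) and are given for mice 1, 2 and 3 in that order.

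**Figure D1:**
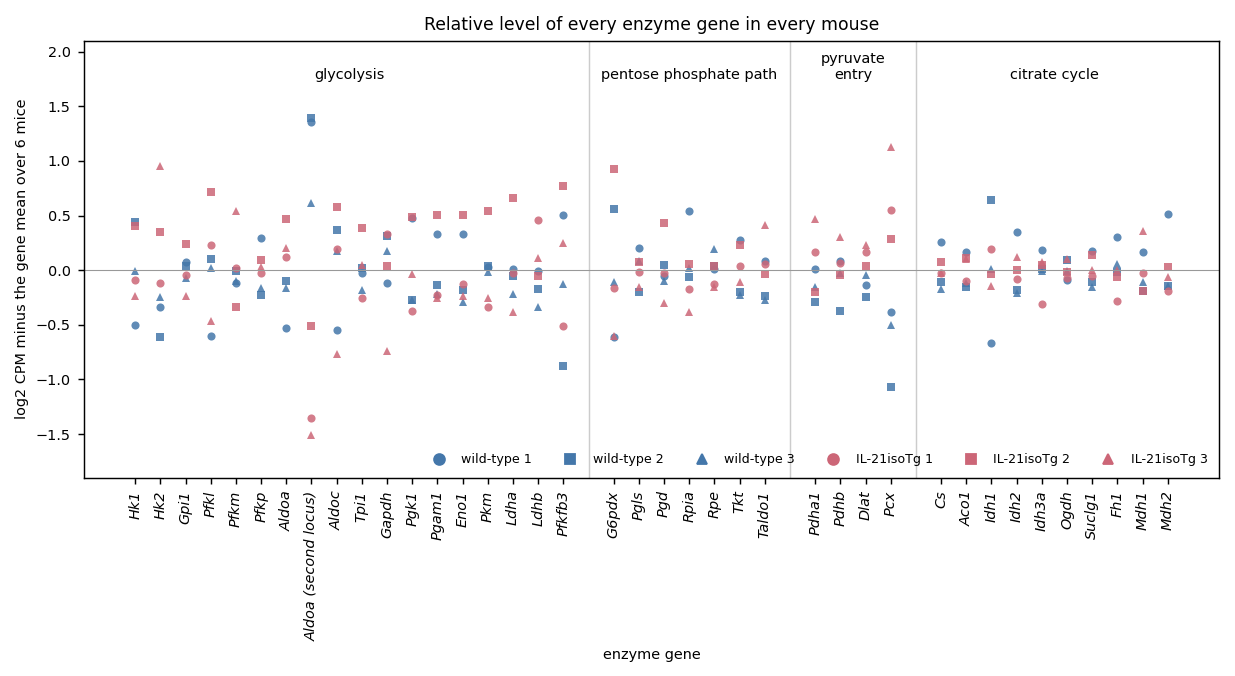
Relative level of each of the 39 enzyme rows in each mouse (y axis: log2 CPM minus the mean of that gene over the 6 mice; x axis: genes by path; color: genotype; symbol: mouse number). The squares of IL-21isoTg mouse 2 lie on top in 11 of 18 glycolysis rows, and the points of Pcx separate by genotype.

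The promoters of Pcx, Hk2, Aldoa and Dlat, which were higher without overlap, are shown with letters that match known factor motifs in capitals. The choice is descriptive, since the share of rows without overlap was near the background and the quasi-likelihood test called none. ACGTG is the core bound by hypoxia-inducible factors, which are known to drive glycolytic genes. CACGTG is the E-box bound by Myc and related factors, and it contains the core on both strands. TTCNNNGAA is the palindrome bound by STAT proteins, which act below the IL-21 receptor and other cytokine receptors. The paper did not detect expression of the IL-21 receptor in MECs. Both strands were searched, so the core can also be read as CACGT. The sequences are from RefSeq on GRCm38.p6, run from 250 bases before to 50 bases after a start, and are of the reference strain, while the mice were BALB/c.
Pcx, chr19:4510222-4510521, plus strand: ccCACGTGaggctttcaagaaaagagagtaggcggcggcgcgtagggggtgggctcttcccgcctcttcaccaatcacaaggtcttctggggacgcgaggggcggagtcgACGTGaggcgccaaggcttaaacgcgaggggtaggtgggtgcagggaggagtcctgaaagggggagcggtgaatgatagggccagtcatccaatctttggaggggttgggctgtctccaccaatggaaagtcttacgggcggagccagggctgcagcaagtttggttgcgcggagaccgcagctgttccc
Pcx, chr19:4594069-4594368, plus strand: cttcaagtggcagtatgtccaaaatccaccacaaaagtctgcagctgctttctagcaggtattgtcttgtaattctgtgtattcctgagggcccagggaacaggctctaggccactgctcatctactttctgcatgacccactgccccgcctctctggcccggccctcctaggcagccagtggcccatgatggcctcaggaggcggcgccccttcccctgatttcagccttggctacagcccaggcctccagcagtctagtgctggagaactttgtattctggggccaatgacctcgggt
Hk2, chr6:82774405-82774704, minus strand: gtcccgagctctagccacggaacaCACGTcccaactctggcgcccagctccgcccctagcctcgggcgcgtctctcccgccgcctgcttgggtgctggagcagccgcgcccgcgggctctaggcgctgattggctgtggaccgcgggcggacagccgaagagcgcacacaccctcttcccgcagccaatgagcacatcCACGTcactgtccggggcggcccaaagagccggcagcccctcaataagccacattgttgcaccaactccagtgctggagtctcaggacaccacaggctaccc
Aldoa, chr7:126799129-126799428, minus strand: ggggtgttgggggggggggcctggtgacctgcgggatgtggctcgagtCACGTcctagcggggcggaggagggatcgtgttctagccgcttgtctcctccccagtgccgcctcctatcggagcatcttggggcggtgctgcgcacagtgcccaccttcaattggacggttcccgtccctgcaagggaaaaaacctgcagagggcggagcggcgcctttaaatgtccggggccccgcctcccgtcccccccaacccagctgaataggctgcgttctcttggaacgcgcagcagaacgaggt
Dlat, chr9:50659731-50660030, minus strand: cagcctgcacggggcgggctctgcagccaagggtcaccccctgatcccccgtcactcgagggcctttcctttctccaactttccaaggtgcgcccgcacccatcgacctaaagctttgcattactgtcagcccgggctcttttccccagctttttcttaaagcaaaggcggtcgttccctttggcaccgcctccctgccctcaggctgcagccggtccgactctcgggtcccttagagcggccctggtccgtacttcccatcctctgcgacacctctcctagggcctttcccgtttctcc

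The upstream start of Pcx held the E-box and a further core, Hk2 held the core at 2 places, and the Aldoa window shown held it once. RefSeq lists 2 more Aldoa starts, of which the one at chr7:126799205-126799504 overlaps the window shown and holds the same match and the one at chr7:126800398-126800697 holds none of these motifs. The Dlat and the downstream Pcx window held none either. Among 57 promoters of 37 of the enzyme genes (all but Idh3a), the core was in 24, which is 42.1% against 19.6% of all 32851 promoters. These shares count starts and not genes, so overlapping windows of a gene, as for Aldoa, can count the same match more than once. The E-box was in 7 (12.3% against 7.15%) and the STAT palindrome in 2 (3.51% against 8.30%). The enzyme promoters had a median GC content of 60.7% against 52.7% for all promoters, and the shares are not matched on it. A match describes letters and not binding.

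In pyruvate entry 4 of 4 genes had positive fold changes, none called, with a median log2 fold change of 0.30, where 47.9% of all genes were positive. The groups did not overlap for Pcx and Dlat, and they overlapped for Pdha1 and Pdhb. Pcx (chromosome 19, 4510472 to 4621752 on GRCm38) makes oxaloacetate from pyruvate, which refills the citrate cycle. Its level was 86.1, 53.6 and 79.5 CPM in wild-type and 165, 137 and 246 CPM in IL-21isoTg mice. The lowest IL-21isoTg mouse stood above the highest wild-type mouse. The means were 73.0 ± 17.2 and 183 ± 57.0 CPM (SD, n = 3), and the log2 fold change was 1.32 with an SE of 0.27 and an adjusted p of 0.553 by edgeR's quasi-likelihood test. DESeq2 gave 1.34 with an adjusted p of 0.00454, and edgeR's likelihood ratio test gave an adjusted p of 0.00872. Leaving out each mouse in turn gave log2 fold changes from 1.06 (without IL-21isoTg mouse 3) to 1.49 (without IL-21isoTg mouse 2), with adjusted p from 0.436 to 0.994.

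Within each genotype Pcx followed the salivary share of the library, so that the mice with 40.3% and 22.6% salivary counts had the highest Pcx of their genotype. By mouse, wild-type mouse 1 (22.6%) had 86.1 CPM and IL-21isoTg mouse 1 (22.2%) had 165 CPM, and wild-type mouse 2 (6.58%) had 53.6 CPM and IL-21isoTg mouse 2 (4.88%) had 137 CPM. With the log2 salivary share in the edgeR fit the log2 fold change of Pcx was 1.23, SE 0.17, adjusted p 0.217. Pcx is also abundant in fat cells. All 5 tested of 9 adipocyte markers had positive fold changes, and 5 of the 9, Adipoq, Cidec, Adrb3, Lep and Retn, were at 0 in at least 1 mouse. The summed level of the 9 was 147 to 205 CPM in wild-type mice. It was 586, 313 and 207 CPM in IL-21isoTg mice 1 to 3, and its part in the Pcx level was not tested.

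**Figure D2:**
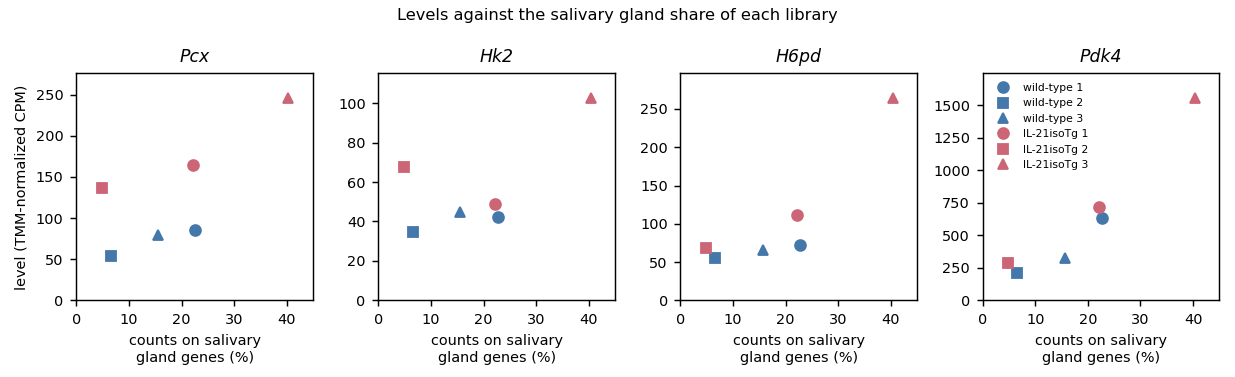
Level in CPM (y axis) against the percentage of counts on the 15 salivary gland genes (x axis) in the 6 mice for Pcx, Hk2, H6pd and Pdk4. Pcx ends at 246 CPM and Pdk4 at 1560 CPM in IL-21isoTg mouse 3, the mouse with 40.3% salivary counts.

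The pyruvate dehydrogenase complex makes acetyl-CoA from pyruvate. Dlat, its acetyltransferase subunit, had 48.6, 45.2 and 51.8 CPM in wild-type and 60.0, 55.1 and 62.7 CPM in IL-21isoTg mice. The groups did not overlap, but the difference was small, with a log2 fold change of 0.29 (SE 0.14) and an adjusted p of 0.809. It ran from 0.24 to 0.34 when each mouse was left out. Pdha1 and Pdhb, which form the decarboxylating subunit, had overlapping levels with log2 fold changes of 0.31 (SE 0.20) and 0.21 (SE 0.18). Pdha1 had 203, 164 and 180 CPM in wild-type and 225, 175 and 278 CPM in IL-21isoTg mice. IL-21isoTg mouse 3 was highest in all 4 pyruvate entry genes, which 21.6% of all genes were, and wild-type mouse 2 was lowest in all 4, against 14.2% of all genes. These are the mice with the highest and the second lowest salivary share.

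**Figure D3:**
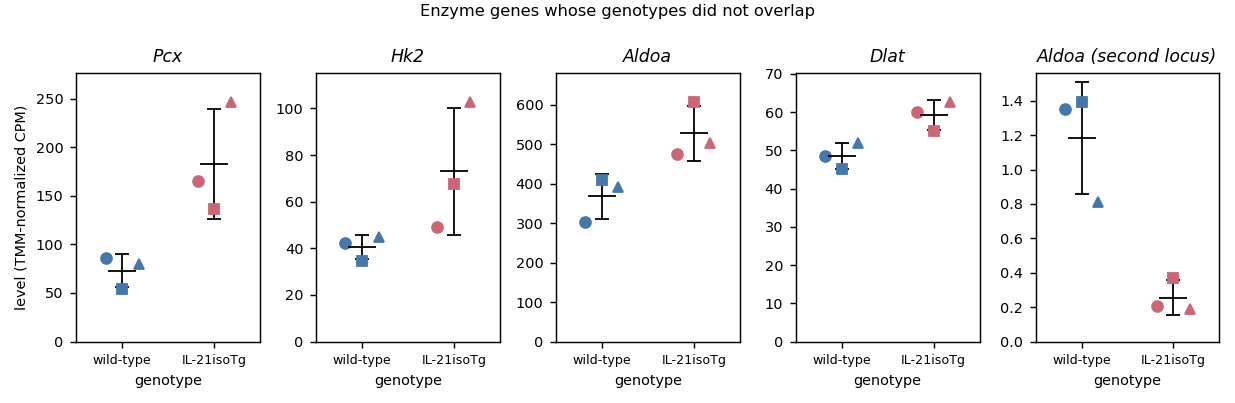
Level in CPM of the 5 enzyme rows whose genotypes did not overlap, for each mouse (points) with mean and SD of 3 mice (bars). Pcx, Hk2, Aldoa and Dlat are higher and the second Aldoa identifier is lower in all IL-21isoTg mice, and none passed the adjusted test of edgeR's quasi-likelihood fit.

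Glycolysis had 18 rows, of which 15 had positive and 3 negative fold changes with a median log2 fold change of 0.084 and none called. Hk2, the inducible hexokinase that commits glucose to the cell, had 42.1, 34.7 and 44.8 CPM in wild-type and 48.9, 67.4 and 103 CPM in IL-21isoTg mice. The groups were apart by little, since wild-type mouse 3 and IL-21isoTg mouse 1 were close. The fold was 1.80 (log2 0.85, SE 0.27, adjusted p 0.809), and without IL-21isoTg mouse 3, the mouse with the largest salivary share, the log2 fold change was 0.53. With the log2 salivary share in the edgeR fit it was 0.80 (SE 0.25), and Hk2 was not in the order of that share in either genotype. Hk1, the more constant hexokinase, had 98.7, 189.6 and 139.8 CPM in wild-type and 132, 185 and 119 CPM in IL-21isoTg mice, with a log2 fold change of 0.03 (SE 0.27).

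Aldoa encodes aldolase A, which cleaves fructose 1,6-bisphosphate. Its main identifier (chromosome 7, 126795234 to 126800751) had 303, 409.5 and 392 CPM in wild-type and 475, 607 and 503 CPM in IL-21isoTg mice. All IL-21isoTg mice were above all wild-type mice, with a log2 fold change of 0.52 (SE 0.20, adjusted p 0.809) that stayed between 0.41 and 0.61 when each mouse was left out. The second identifier with this symbol, ENSMUSG00000114515, lies just upstream on the same strand (126800790 to 126809108). It had 30, 29 and 18 counts in wild-type and 5, 10 and 2 counts in IL-21isoTg mice, with a log2 fold change of -2.14 (SE 0.58, adjusted p 0.809). The neighbours on the same strand thus had fold changes of opposite sign, at levels of 528 and 0.256 CPM in the IL-21isoTg mean.

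In glycolysis as a whole a single mouse stood apart. IL-21isoTg mouse 2 was the highest of the 6 mice in 11 of all 18 rows, whereas 12.6% of all genes were highest in it. With the second Aldoa identifier left out, its glycolysis rows stood a median of 0.47 log2 units above their gene means. On the same rows the other mice had medians of -0.01, -0.05 and -0.16 in wild-type and -0.05 and -0.23 in IL-21isoTg mice 1 and 3. Without IL-21isoTg mouse 2, 6 of all 18 rows were positive and the median log2 fold change was -0.13. This library had the smallest salivary share and the largest share of counts on epithelial markers, 1.14% against 0.497% to 0.852% in the others. These raw shares also fall as the salivary share rises. In CPM the summed epithelial markers were 9742 in this mouse against 6431 to 8562 in the others, a smaller difference. The part of this in the glycolysis levels was not tested.

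Pkm, pyruvate kinase of the last step, showed this pattern with 473, 477 and 459.5 CPM in wild-type and 367, 678 and 388 CPM in IL-21isoTg mice. Wild-type mice were nearly equal, and the transgenic mice lay on both sides of them. Ldha, the lactate dehydrogenase subunit that favors lactate formation, had 264, 254 and 226 CPM in wild-type and 258, 417 and 202 CPM in IL-21isoTg mice. The SDs were 9.41 against 174 CPM for Pkm and 19.7 against 111 CPM for Ldha, wild-type first.

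Eno1 (enolase) had 285, 199.7 and 185 CPM in wild-type and 207, 321 and 193 CPM in IL-21isoTg mice, and Pgk1 (phosphoglycerate kinase) had 184, 109 and 109 CPM and 102, 185 and 129 CPM. For both, and for Pgam1 (phosphoglycerate mutase), wild-type mouse 1 and IL-21isoTg mouse 2 were the highest pair. Pfkfb3, which makes the activator fructose 2,6-bisphosphate, had the widest spread of these, with 489.5, 188 and 316 CPM in wild-type and 242, 588 and 409.5 CPM in IL-21isoTg mice and a log2 fold change of 0.32 (SE 0.41). Ldhb, the other lactate dehydrogenase subunit, had 42.0, 37.4 and 33.5 CPM in wild-type and 58.2, 40.7 and 45.5 CPM in IL-21isoTg mice, a log2 fold change of 0.35 (SE 0.18) with the groups overlapping. The rest of the path, Gpi1 (phosphoglucose isomerase), Tpi1 (triose phosphate isomerase), the phosphofructokinases Pfkl, Pfkm and Pfkp, Aldoc (aldolase C) and Gapdh, had log2 fold changes between -0.19 and 0.37.

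Of the phosphofructokinases, which run the committed step, Pfkl had 59.4, 97.1 and 92.1 CPM in wild-type and 106, 149 and 65.7 CPM in IL-21isoTg mice. Pfkm had 30.7, 33.1 and 31.0 CPM and 33.7, 26.4 and 48.6 CPM, wild-type first. Pfkp had 80.6, 56.1 and 58.9 CPM and 64.6, 70.3 and 67.3 CPM. IL-21isoTg mouse 2 was thus the highest mouse for Pfkl and the lowest for Pfkm, and the groups overlapped for each. Aldoc, the aldolase best known from brain, had 66.4, 125 and 109.5 CPM in wild-type and 111, 145 and 57.1 CPM in IL-21isoTg mice, and unlike Aldoa it overlapped between the genotypes.

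Gapdh, the glyceraldehyde phosphate dehydrogenase used as a reference gene in many assays, had 201, 254 and 246 counts in wild-type and 296, 270 and 63 counts in IL-21isoTg mice. This was 38th of the 39 rows per kb of exon (all annotated exons of a gene together), far under Tpi1 and Pgk1 on either side of it in the path. Stretches of 150 bases, the length of a read, were taken from all annotated transcripts of a gene, each stretch counted once. Of those of Gapdh, 18.1% occur exactly in transcripts of 49 other annotated genes. Transcripts were not weighted by their level, so this is not the share of Gapdh reads that other genes match. For Pgk1 the share was 49.4%, for Pgam1 32.2% and for Eno1 16.5%. The Eno1 retrogene Eno1b had 31.3%, 33.1% and 34.4% of the Eno1 count in wild-type and 29.0%, 30.7% and 31.3% in IL-21isoTg mice, so the counts of these 4 genes are uncertain to the extent that reads were split among copies.

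Across the path, mean levels per kb of exon spanned from 0.902 CPM per kb for the second Aldoa identifier and 2.44 for Gapdh to 154 for Aldoa, the highest glycolytic row. Pkm followed at 94.7, Ldha at 81.7 and Tpi1 at 75.5 CPM per kb (means of 6 mice). Aldoa per kb ran from 104 to 209 and Pkm from 73.3 to 135 CPM per kb over the 6 mice, so that neighbours in this order overlapped. On this scale the highest pentose phosphate gene was Taldo1 at 91.7, the highest pyruvate entry gene Pdha1 at 54.7 and the highest citrate cycle gene Mdh1 at 53.6 CPM per kb. The length is that of all annotated exons of a gene and can exceed that of its main transcript, so the order depends on the annotation. Before division by length, Mdh2 was above Mdh1 in wild-type (157 against 133 CPM) and below it in IL-21isoTg mice (138 against 143 CPM).

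**Figure D4:**
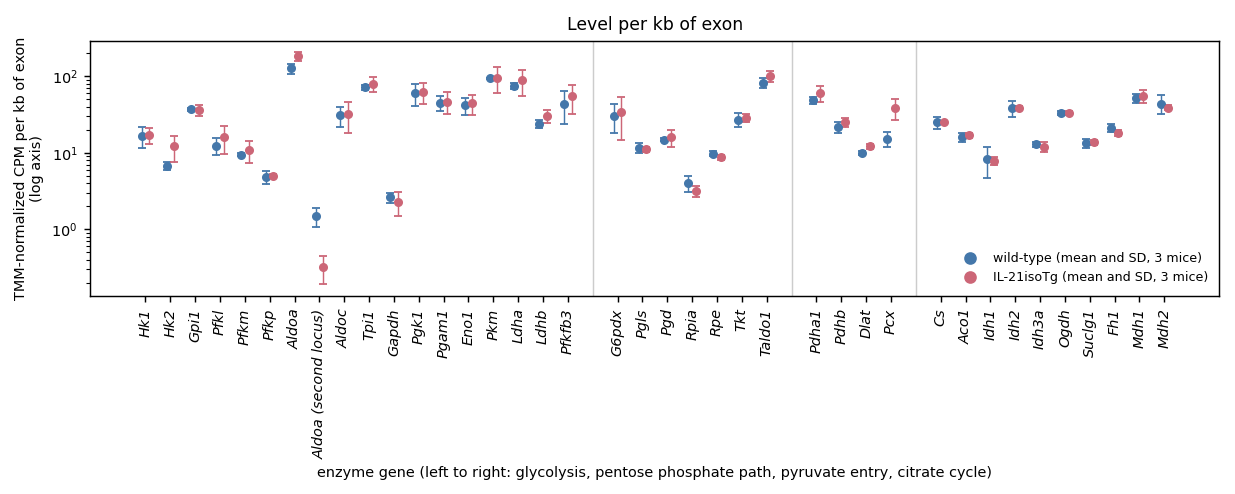
TMM-normalized CPM per kb of exon (y axis, log scale) for the 39 enzyme rows, as mean and SD of 3 mice per genotype. Aldoa is the highest row in both genotypes, and Gapdh lies at 2.44 CPM per kb among enzymes of its path that are mostly above 10.

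The pentose phosphate path had 7 genes, 4 with positive and 3 with negative fold changes, a median log2 fold change of 0.092 and no gene without overlap. G6pdx, glucose 6-phosphate dehydrogenase of the first and NADPH-yielding step, had 60.3, 136 and 85.2 CPM in wild-type and 82.2, 175 and 60.6 CPM in IL-21isoTg mice. The spread within each genotype exceeded the difference, a log2 fold change of 0.18 (SE 0.43). With the salivary share in the fit the SE of G6pdx was 0.15 and the log2 fold change was 0.26 (adjusted p 0.799). Pgd, the other dehydrogenase of the path, had 94.2, 101 and 91.8 CPM in wild-type and 96.3, 133 and 79.6 CPM in IL-21isoTg mice. Taldo1, transaldolase of the non-oxidative arm, had 208, 166 and 163 CPM in wild-type and 204, 191 and 262 CPM in IL-21isoTg mice, a log2 fold change of 0.29 (SE 0.19). Tkt (transketolase) stood at 0.09, Pgls (6-phosphogluconolactonase) at -0.06, Rpe (ribulose phosphate epimerase) at -0.16 and Rpia (ribose 5-phosphate isomerase) at -0.34 (SE 0.23) on the log2 fold change scale.

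The citrate cycle showed the smallest differences, with 10 genes, 6 positive and 4 negative, a median log2 fold change of 0.005 and a range from -0.23 to 0.10. Cs, citrate synthase of the first step, had 173, 133 and 127 CPM in wild-type and 142, 152 and 141 CPM in IL-21isoTg mice. Ogdh, the oxoglutarate dehydrogenase subunit, had 168, 191 and 178 CPM and 170, 177 and 192 CPM, with a log2 fold change of 0.01 (SE 0.15). Fh1 (fumarate hydratase) was lowest at -0.23 (SE 0.16), with 82.2, 66.1 and 69.5 CPM in wild-type and 54.8, 64.0 and 67.1 CPM in IL-21isoTg mice. Mdh1, the cytosolic malate dehydrogenase, was highest at 0.10 (SE 0.19), with 153, 119 and 126 CPM in wild-type and 134, 119.5 and 174 CPM in IL-21isoTg mice. Wild-type mouse 1 was the highest of the 6 in 7 of 10 genes, which 24.7% of all genes were. Aco1 (the cytosolic aconitase), Idh1, Idh2 and Idh3a (isocitrate dehydrogenases), Suclg1 (a succinyl-CoA ligase subunit) and Mdh2 (mitochondrial malate dehydrogenase) lay between -0.18 and 0.07.

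The NADP-linked isocitrate dehydrogenases had unlike spreads. Idh1, the cytosolic form, had 13.5, 33.4 and 21.6 CPM in wild-type and 24.4, 20.8 and 19.4 CPM in IL-21isoTg mice, so the wild-type mice spanned the transgenic ones. Idh2, the mitochondrial form, had 125, 86.5 and 84.9 CPM in wild-type and 93.1, 98.4 and 107 CPM in IL-21isoTg mice. Mdh2 had 207, 131.5 and 132 CPM in wild-type and 127, 148 and 138.5 CPM in IL-21isoTg mice. In Idh2 and Mdh2 wild-type mouse 1 stood above the other 5 mice.

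The order of the mice tied some enzymes to the salivary share in both genotypes. Pcx, Pdha1, Pdhb and Mdh1 were in the order of that share (4 of 39 rows, 10.3%, against 5.77% of all genes). Hk1, Pfkl, Aldoc and G6pdx were in the opposite order (4 of 39 rows against 6.69% of all genes). These are descriptions over 3 mice per genotype.

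Enzymes that catalyze the same step were compared as ratios within a mouse, which are not touched by library size. None of 7 ratios had groups without overlap, and exact two-sided permutation tests, whose smallest possible p is 0.1 at 3 mice per genotype, gave p from 0.3 to 1 (adjusted 0.933 to 1 over the 7). The Ldha to Ldhb ratio was 6.30, 6.79 and 6.75 in wild-type and 4.44, 10.3 and 4.43 in IL-21isoTg mice. On the log2 scale its SD was 0.060 in wild-type and 0.698 in IL-21isoTg mice, with means of 2.72 and 2.55 (p = 0.8, exact permutation test). The Hk2 to Hk1 ratio was 0.426, 0.183 and 0.320 in wild-type and 0.371, 0.365 and 0.866 in IL-21isoTg mice, a difference of 0.74 in log2 means (p = 0.4, exact permutation test). The Aldoc to Aldoa ratio was 0.219, 0.305 and 0.279 in wild-type and 0.234, 0.239 and 0.113 in IL-21isoTg mice, a difference of -0.52 (p = 0.3, exact permutation test).

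Among the phosphofructokinases the Pfkp to Pfkl ratio was 1.36, 0.578 and 0.640 in wild-type and 0.609, 0.472 and 1.03 in IL-21isoTg mice, and the Pfkm to Pfkl ratio was 0.517, 0.340 and 0.337 and 0.318, 0.178 and 0.740. Wild-type mouse 1 was the highest wild-type mouse in both ratios, and IL-21isoTg mouse 3 the highest transgenic one. For the cytosolic and mitochondrial pairs, Idh1 to Idh2 was 0.108, 0.386 and 0.254 in wild-type and 0.263, 0.212 and 0.181 in IL-21isoTg mice, and Mdh1 to Mdh2 was 0.738, 0.908 and 0.958 and 1.05, 0.808 and 1.26.

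**Figure D5:**
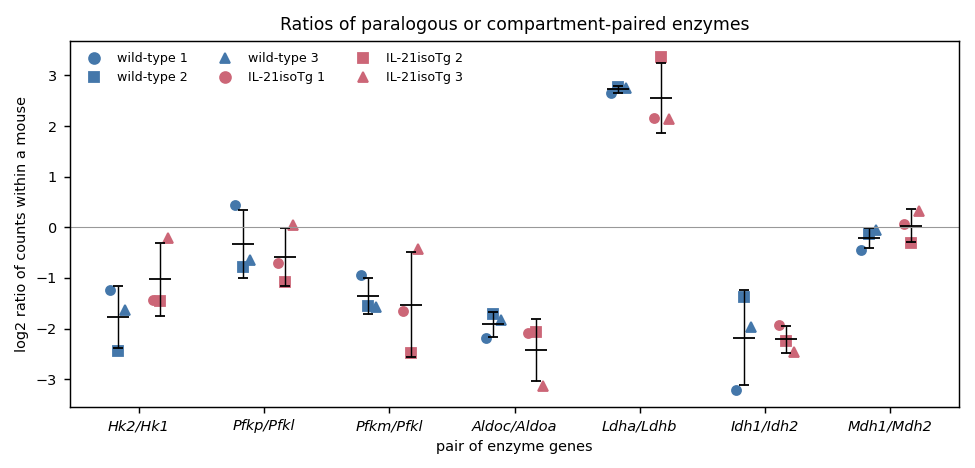
log2 ratio of counts within each mouse (y axis) for 7 pairs of enzyme genes (x axis), with points for mice and bars for mean and SD of 3 mice. The wild-type Ldha to Ldhb ratios lie together and the transgenic ones lie on both sides of them, and every pair overlaps between genotypes.

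A list of 75 further genes of these routes was examined beside the enzymes. Of these, 61 were tested and none was called, 39 had positive and 22 negative fold changes with a median of 0.061, 5 had an unadjusted p under 0.05 and 6 did not overlap, where 5.82% and 12.1% of all genes did so. Of 13 glucose, lactate and pyruvate carriers 12 were positive, with a median log2 fold change of 0.25, beside 47.9% positive and a median of -0.019 over all genes. None of the carriers was called and 1 did not overlap. This was Mpc2, a subunit of the mitochondrial pyruvate carrier, at 26.0, 29.4 and 29.7 CPM in wild-type and 37.2, 32.4 and 41.7 CPM in IL-21isoTg mice (log2 fold change 0.39, SE 0.16). The malic enzymes turn malate into pyruvate. Me1, the cytosolic NADPH-yielding form, had 49.6, 48.2 and 41.3 CPM in wild-type and 74.9, 94.4 and 59.7 CPM in IL-21isoTg mice, a log2 fold change of 0.72 (SE 0.20, adjusted p 0.809). Me3 was also higher without overlap (log2 fold change 1.13, SE 0.36), at 2.72 ± 0.77 and 5.97 ± 1.53 CPM (SD, n = 3). Me2 was lower without overlap (-1.01, SE 0.38), at 8.14 ± 4.15 and 4.02 ± 0.63 CPM.

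H6pd, which runs the first pentose phosphate steps inside the endoplasmic reticulum, had 71.9, 55.6 and 66.5 CPM in wild-type and 111, 68.1 and 265 CPM in IL-21isoTg mice, in the order of the salivary share in both genotypes. Its log2 fold change was 1.19 (SE 0.44), and 0.48 at the lowest when 1 mouse was left out. With the log2 salivary share in the fit it was 0.84 (SE 0.26). Pdk4, the kinase that shuts pyruvate dehydrogenase, had 632, 213 and 326 CPM in wild-type and 716, 286 and 1560 CPM in IL-21isoTg mice, again in the order of the salivary share, and was named for this after its values were seen. The log2 fold change of Pdk4 was 1.13 (SE 0.61), and 0.71 (SE 0.23) with the log2 salivary share in the fit. Of 13 other glycolysis genes 9 were negative, and Ldhd (mitochondrial D-lactate dehydrogenase) and Adpgk (an ADP-dependent glucokinase) were lower without overlap, with log2 fold changes of -0.39 (SE 0.17) and -0.22 (SE 0.16). Adjusted p values of these genes were 0.809 to 0.827 by edgeR's quasi-likelihood test.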

How the data were processed

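RNA-seq of MECs, with 3 mice of each genotype, was analysed from the counts of reads per gene that the authors deposited without normalization. The submitters' processing notes name FastQC 0.11.7, Trimmomatic 0.38, HISAT2 2.1.0, SAMtools 1.9, featureCounts 1.6.3, DESeq2 1.24.0 and mm10, and the kit marks strand. Strand and multi-mapping settings of the counting are not given in the sources used here, so reads shared with copies or overlapping genes cannot be assigned. Overlap on the same strand covered 20.6% of the exons of Pgls, 15.3% of Pkm and 10.2% of Pfkm, and on the other strand 17.9% of Rpe, 16.2% of Pdha1, 13.6% of G6pdx and 11.5% of Gpi1. A table of counts divided by size factors was not used. The authors' table of fold changes and p-values was used only for gene starts and ends.

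Genotypes were compared with edgeR 4.0.16 (filterByExpr with minimum count 10 and minimum total count 15, TMM, robust quasi-likelihood fit with genotype as the only term) in R 4.3.3, with Benjamini-Hochberg adjustment over all 17165 genes and a threshold of 0.05. The script was tested on simulated counts with planted fold changes. These were drawn without the differences in library composition seen here, so that test does not bear on them. Alternatives used DESeq2 1.42.0, limma-voom 3.58.1, other scalings and filters, the replicate number as a block, each mouse left out and, added after the data were seen, the log2 salivary share as a covariate. Paralogue ratios used counts plus 0.5 and exact permutation tests (scipy 1.17.1, Python 3.11.15). A floor of 3 counts is 0.112 to 0.280 CPM and covers counting error only. Lengths and shared stretches of 150 bases come from GENCODE M21 (GRCm38), whose start and end equal the deposited ones for 31020 of 31286 shared identifiers and 38 of 39 enzyme rows (not Mdh1).

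The enzyme genes and all lists were chosen with earlier results of these data known. Values per mouse are given for enzymes whose groups did not overlap, with an unadjusted p under 0.05, with the highest level per kb of each group, or in a pair; others were given by mouse after their values were seen. Of further genes at most 5 per list were named, by unadjusted p or lack of overlap. No mouse was left out of the main comparison. P-values of the fits set the difference between genotypes against the spread between mice. Each SE of an edgeR log2 fold change was derived from the quasi-likelihood test, as the absolute log2 fold change divided by the square root of the F statistic.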

Additional observations from a re-analysis of the deposited data

How the results depend on the processing

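Of all genes, the quasi-likelihood test called 0 at an adjusted p under 0.05, while DESeq2 called 77, edgeR's likelihood ratio test 65, the test without a filter on low counts 14 and the fit with the salivary share as a covariate 1. Leaving out 1 mouse gave 0 to 6 calls, with 6 without wild-type replicate 3. Among the enzymes DESeq2 called 1 and the likelihood ratio test called 1, Pcx in both, and no other alternative called any. DESeq2 set no adjusted p for 12764 of 28778 genes. The median log2 fold change of the enzymes ran from -0.039 (without IL-21isoTg replicate 2) to 0.19 (without wild-type replicate 1) when 1 mouse was left out, and was 0.15 without IL-21isoTg replicate 1 and 0.006 without wild-type replicate 3. The sign of an enzyme's fold change turned in 42 of 234 values with 1 mouse left out (24 enzymes) and in 13 of 389 values of the other alternatives (6 enzymes), all far from the threshold.

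With 1 mouse left out, the difference of log2 ratios ran from -0.57 to 0.13 for Pfkp to Pfkl, from -0.72 to 0.31 for Pfkm to Pfkl, from -0.57 to 0.03 for Ldha to Ldhb (0.029 without IL-21isoTg replicate 1 and 0.031 without IL-21isoTg replicate 3) and from -0.54 to 0.38 for Idh1 to Idh2, so these 4 had no stable sign. Deviations of same-numbered mice correlated at -0.22, 0.07 and -0.06, and 1 of 6 mice correlated best with its own number. The labels give numbers but no pairing, and with 3 mice per genotype these correlations cannot decide whether same-numbered mice were paired. With the replicate block 0 genes were called, the enzyme median was 0.066 and Pcx stood at 1.31 (adjusted p 0.636 by edgeR). The comparison rests on 3 mice per genotype. The cause of these shifts was not tested.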
